A study of Mus musculus with 8 samples.

Results

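The regions described here carried a peak of native Oct4 and a peak of its fusion Oct4BiD, and no peak of Nanog, Sox2 or Nr5a2 in either form. The peaks of 8 libraries were merged into union regions wherever they overlapped by at least 1 bp. Members were defined by peak presence in the 2 Oct4 libraries and peak absence in the other 6, which left 15427 regions of 306466, or 5.03% of all union regions. The values that chose them were the peak calls themselves, so peak heights and scores below are descriptions of that choice. Sequence and location in the genome were not used by the rule.

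The libraries came from Flag CUT&Tag, a method that tethers the transposase Tn5 through an antibody to a tagged protein on chromatin and sequences the DNA cut nearby. The cells were reprogramming intermediates made from mouse embryonic fibroblasts (MEFs), taken at day 3, and the study's methods describe MEFs from embryos of males carrying OG2, a reporter in which Oct4 sequence drives GFP, crossed to 129 strain females, with factors delivered by pMXs retroviral vectors. Libraries exist for Oct4, Sox2, Nanog and Nr5a2, with a native and a BiD form of each, where BiD names an added segment of SS18 that contacts BRG1, the motor subunit of BAF, a chromatin remodelling complex. Each group was 1 library, any other factors given to the same cells are not named in the titles, and no comparison below has a replicate or a test. Delivery is by virus in every group, so all 8 libraries share infection as such. Its extent in each library is not given, and no uninfected library was analysed here.

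Oct4, the product of Pou5f1, belongs to the POU family of transcription factors. Its DNA-binding region has a POU-specific domain and a homeodomain joined by a linker, and each contacts one side of the octamer ATGCAAAT, with the POU-specific domain on the side that begins ATGC. In pluripotent cells Oct4 is known for binding beside Sox2 on a joint SOX and octamer element. POU proteins also bind as pairs on palindromic elements, of which the MORE type places ATGCAT elements side by side and the PORE type uses an octamer with extra bases.

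Some of the strongest members show these sequences directly. Among the 15 members with the highest rank, where rank is the lower of the region's score percentiles in the native Oct4 list and in the Oct4BiD list, 4 held an exact octamer within 50 bp of the summit. The summit was that of the region's highest-scoring peak. By the same count ATGCAT was at 4 of the 15. The windows reaching 50 bp to either side of the 4 summits with an octamer are given in mm10 coordinates on the forward strand. The octamer is in capitals on whichever strand it lies. Near Ndst3 and Poteg it lies close to the left edge of the window, away from the summit. Repeat-masked bases made up 31.7%, 47.5%, 31.7% and 0% of the windows in the order printed.

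Ngly1, chr14:16289264-16289364: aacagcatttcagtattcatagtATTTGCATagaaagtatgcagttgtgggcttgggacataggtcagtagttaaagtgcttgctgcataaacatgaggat
Ndst3, chr3:123771276-123771376: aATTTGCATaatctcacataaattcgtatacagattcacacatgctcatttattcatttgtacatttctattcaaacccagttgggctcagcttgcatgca
Poteg, chr8:27595703-27595803: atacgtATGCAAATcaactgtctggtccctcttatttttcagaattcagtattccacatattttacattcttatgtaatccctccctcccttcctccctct
Man1a, chr10:54468103-54468203: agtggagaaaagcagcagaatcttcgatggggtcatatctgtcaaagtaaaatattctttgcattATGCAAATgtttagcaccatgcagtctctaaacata

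Each window is named by the nearest protein-coding gene. The member near Ngly1, which encodes a glycanase that removes sugar chains from misfolded proteins, lay in an intron of that gene 8.34 kb from a start site. Its summit height, the authors' tag count where the peak is tallest, was 77 tags in native Oct4 and 78 tags in Oct4BiD. The member near Ndst3, a heparan sulfate sulfotransferase gene, was intergenic, 80.5 kb from a start site, with 97 tags in native Oct4 and 94 tags in Oct4BiD. The member near Poteg lay 148 kb from its start site in an intron of the annotated gene Gm45861, with 77 tags in native Oct4 and 82 tags in Oct4BiD. The member near Man1a, a Golgi mannosidase gene, was intergenic and 392 kb away, with 44 tags in native Oct4 and 54 tags in Oct4BiD. Both forms gave nearly the same height at the first 3 of these, and Oct4BiD was higher at the fourth.

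Many members without an octamer carried several copies of its ATGC side. Among the top 15 the largest number of ATGC matches was 10, counting both strands, in the window near Irx1, an Iroquois homeobox gene. It is shown with ATGC and its reverse complement GCAT in capitals.

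Irx1, chr13:72029924-72030024: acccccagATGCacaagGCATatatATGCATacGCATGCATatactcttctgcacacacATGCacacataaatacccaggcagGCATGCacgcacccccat

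This member was intergenic, 66.3 kb from the nearest Irx1 start site, with 97 tags in native Oct4 and 105 tags in Oct4BiD. Across all members, words of 8 bases were ranked by their share at summits over their share in flanks, and the palindrome ATGCGCAT stood second behind TATGCGCA, a word that overlaps it by 7 bases. The windows of the 3 highest-ranked members with ATGCGCAT are shown with that word in capitals. Repeat-masked bases made up 65.3%, 33.7% and 55.4% of them in the order printed. Long stretches of the window near Tmem232 nearly match the window near Ndst3 above, so these are not independent examples. The windows with ATGCGCAT, like those with a MORE element further on, were chosen for display after their values were seen.

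Trp53bp2, chr1:182455252-182455352: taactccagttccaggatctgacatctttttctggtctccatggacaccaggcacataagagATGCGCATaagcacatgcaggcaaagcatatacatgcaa
Tmem232, chr17:65346333-65346433: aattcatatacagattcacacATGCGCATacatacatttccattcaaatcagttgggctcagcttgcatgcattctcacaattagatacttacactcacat
Oas1d, chr5:120933917-120934017: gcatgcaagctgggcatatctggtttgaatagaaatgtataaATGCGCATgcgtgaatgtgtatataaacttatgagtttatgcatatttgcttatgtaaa

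In ATGCGCAT 2 ATGC sites, one on each strand, abut each other. The member near Trp53bp2 had 61 tags in native Oct4 and 77 tags in Oct4BiD, that near Tmem232 had 70 and 81, and that near Oas1d had 61 and 59.

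The lists differed in size, and the members took a different share of each. Native Oct4 had 54794 peaks, of which 28.3% lay in members, and Oct4BiD had 93978 peaks, of which 16.5% did. Regions of both libraries of another factor alone numbered 11593 for Nanog, 20296 for Sox2 and 30814 for Nr5a2. A further 24148 regions held peaks of both Oct4 libraries together with a peak of at least 1 other library, and 32405 regions had Oct4BiD peaks alone against 8960 with native Oct4 peaks alone. Nearly all members, 15299, held exactly 1 peak of each form, and 128 held more. The median member was 974 bp wide, with a range from 355 to 5263 bp.

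Both forms peaked at almost the same place in a member. The median distance between the native Oct4 and the Oct4BiD summit was 42 bp (quartiles 15 and 95 bp), and 76.2% of members had the summits within 100 bp of each other. In regions that also held another factor the median was 49 bp.

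Native Oct4 had a median height of 17 tags in members (quartiles 13 and 24, highest 113), which was also the median of its whole list. Oct4BiD had a median of 24 tags (quartiles 16 and 36, highest 120) against 19 tags over its whole list. Oct4BiD was the higher form in 65.6% of members (95% interval 64.8 to 66.3), native Oct4 in 30.2%, and 4.17% were tied. Heights are not scaled to sequencing depth. The study's reporting summary lists fewer read pairs for Oct4BiD than for native Oct4, the peak lists themselves give no depth, and no height was rescaled here, so the direction between libraries was also read from score percentiles within each list, by which Oct4BiD was the higher form in 58.4%. Intervals for shares are exact Clopper-Pearson 95% intervals, and they cover counting error over regions and not the spread between cultures. In regions of both Oct4 libraries with another factor, Oct4BiD was higher in 73.2% (72.6 to 73.7).

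A member that was strong in one list was only loosely strong in the other. Over the 15427 members the percentiles had a Pearson r of 0.34 and a Spearman rho of 0.37; each point shares its region, and both lists were thresholded before the pairing. Of 1607 members in the top 10% of the native list and 2649 in the top 10% of the Oct4BiD list, 836 were in both.

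**Figure D1:**
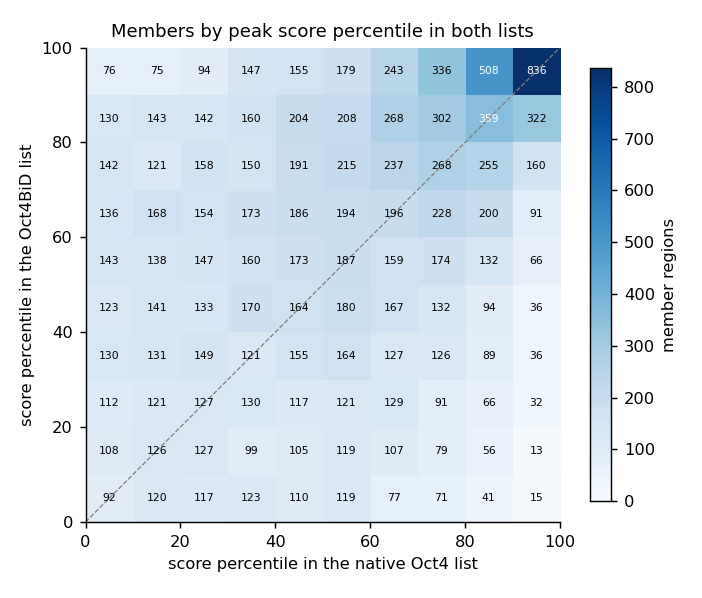
Number of members by score percentile in the native Oct4 list (horizontal axis) and in the Oct4BiD list (vertical axis), in steps of 10 percentiles, with the number printed in each square and equal percentiles on the dashed line. The fullest square, with 836 members, is the top step of both lists, and members spread over every other square.

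The edges of the rule were as follows. The lowest score that the caller kept was 50 in every list, where the score is 10 times the negative log10 of the peak's p-value. There were 957 members (6.20%) whose native Oct4 peak scored under 55, just inside the rule, and in these the median height was 11 tags in native Oct4 and 20 tags in Oct4BiD. Just outside it were 406 regions whose only other peak scored under 55, with a median score of 127 in native Oct4 and 235 in Oct4BiD, against 117 and 192 in members. Members were not remote from other factors. The median distance from a member's edge to the nearest peak of another factor was 2404 bp, 462 members had one within 100 bp, and 2019 members (13.1%) had none within 10 kb.

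The octamer was found at the summits of 1353 of the 15425 members on placed chromosomes, or 8.77% (8.33 to 9.23), counting ATGCAAAT on either strand wholly within 50 bp. The share over all union regions, members included, was 2.93%. Windows of the same size 500 bp to either side of member summits held it in 0.804%, so the summit share was 10.9 times the flank share (95% interval 9.54 to 12.5, from the counts on the log scale). The octamer share was 0.285% in regions of both Nanog libraries only, 0.517% in those of both Sox2 libraries and 0.399% in those of both Nr5a2 libraries, each below the share in that class's own flanks. It was 4.56% (4.30 to 4.83) where both Oct4 libraries met another factor. The variant ATGCTAAT, which differs from the octamer in 1 base, was at 3.05% of members against 0.405% of flanks and 1.13% of all union regions.

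Some palindromes of the ATGC side were at higher shares of members than the octamer, and others at lower ones. ATGCAT, a shorter word in which 2 ATGC sites on opposite strands overlap, was at 26.8% of member summits (26.1 to 27.6), 4.22% of their flanks and 6.87% of all union regions. Its extension ATGCATAT was at 12.1% (11.6 to 12.7), 13.1 times its flanks, against 2.18% of all union regions. The abutting form ATGCGCAT was rarer, at 2.10% (1.88 to 2.34), but only 9 of the 30850 flank windows held it, which made the summit share 72.0 times the flank share (37.1 to 140). Over all union regions ATGCGCAT was at 0.319%. GCATATGC, with the ATGC sites facing outward, was at 3.77% of members, 0.211% of flanks and 0.664% of all union regions, and the tandem ATGCATGC, which contains ATGCAT, was at 6.90%, 0.755% and 1.38%.

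Few members carried both kinds of element. The octamer and ATGCAT were together at 285 members, the octamer without ATGCAT at 1068 and ATGCAT without the octamer at 3856, which left 10216 members (66.2%) with neither. At least 1 of the octamer, its variant, ATGCAT, ATGCGCAT and GCATATGC was at 38.3% of members.

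The single ATGC side, counted on both strands, was common wherever an Oct4 form had peaks without the other factors. At least 1 was at 83.3% of members (82.7 to 83.9) against 56.2% of all union regions and between 47.8% and 52.7% of the regions of the other factors' pairs, and it was nearly as frequent in regions of one Oct4 form alone, at 77.8% for Oct4BiD and 77.7% for native Oct4. Members held 2.34 on average at the summit and 0.757 in the flanks. The share with 4 or more was 22.3% (21.7 to 23.0) in members, against 4.42% of all union regions and 7.08% where both Oct4 libraries met another factor. There were 421 members with 8 or more, and 2579 members (16.7%) with none.

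The first of the paired elements, MORE, taken as a pair of ATGCAT with 0 to 2 bases between, was at 231 members, or 1.498% (1.31 to 1.70), against 8 flank windows. The share was 57.8 times that of the flanks (28.5 to 117), and it was 0.200% in all union regions, 0.457% in Oct4BiD-only regions and 1.496% in native-only regions, the last equal to that of members within counting error. Windows of the 3 highest-ranked members with such a pair are shown with ATGCAT in capitals.

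Lrrc38, chr4:143336911-143337011: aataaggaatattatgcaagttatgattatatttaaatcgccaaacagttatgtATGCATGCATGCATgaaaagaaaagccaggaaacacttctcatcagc
Parm1, chr5:91646603-91646703: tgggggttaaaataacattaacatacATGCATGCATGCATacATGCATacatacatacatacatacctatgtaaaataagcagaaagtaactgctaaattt
Mmp7, chr9:7714077-7714177: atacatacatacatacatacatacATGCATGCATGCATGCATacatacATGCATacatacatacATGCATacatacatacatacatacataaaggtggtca

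In all 3 the pair sits in a short run of ATGC repeats, and the windows near Parm1 and Mmp7 go on into repeats of ATAC. Repeat-masked bases made up 40.6%, 54.5% and 95.05% of these windows. The PORE element, an octamer with ATTTGAA before it, was at 1 member and in 2 flank windows.

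The joint SOX and octamer element was close to absent. CATTGT or CTTTGT followed by any base and ATGC was at 5 members (0.0324%), against 0.0519% of flanks and 0.102% of all union regions. The ratio to flanks was 0.625 (0.229 to 1.71), an interval that includes equal shares, and regions of both Sox2 libraries only held the element at 0.261%. The SOX element CCATTGTT was at 26 members, or 0.169% (0.110 to 0.247), which was 0.403 times the flank share, against 1.27% of all union regions. The rule itself left out every region with a Sox2 peak.

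Elements of fibroblast factors were at lower shares in members than over all union regions, as they were in regions of one Oct4 form alone. The AP-1 element TGACTCA was at 2.85% of members (2.60 to 3.13), 2.005 times its flanks, against 6.41% of all union regions and between 6.31% and 9.06% where both Oct4 libraries met another factor, in both Sox2 libraries only and in both Nanog libraries only. It was at 2.38% of Oct4BiD-only and 2.67% of native-only regions. The TEAD elements CATTCCA and CATTCCT were together at 6.24% of members and 7.08% of all union regions, and the RUNX element AACCACA at 3.36% and 4.27%. Regions of both Nr5a2 libraries only were below members for RUNX, at 2.47% (2.30 to 2.65) against an interval of 3.08 to 3.65. For TEAD they were at 6.10% (5.83 to 6.37), equal to members (5.87 to 6.64) within counting error. AP-1, TEAD and RUNX factors bind enhancers of fibroblasts.

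**Figure D2:**
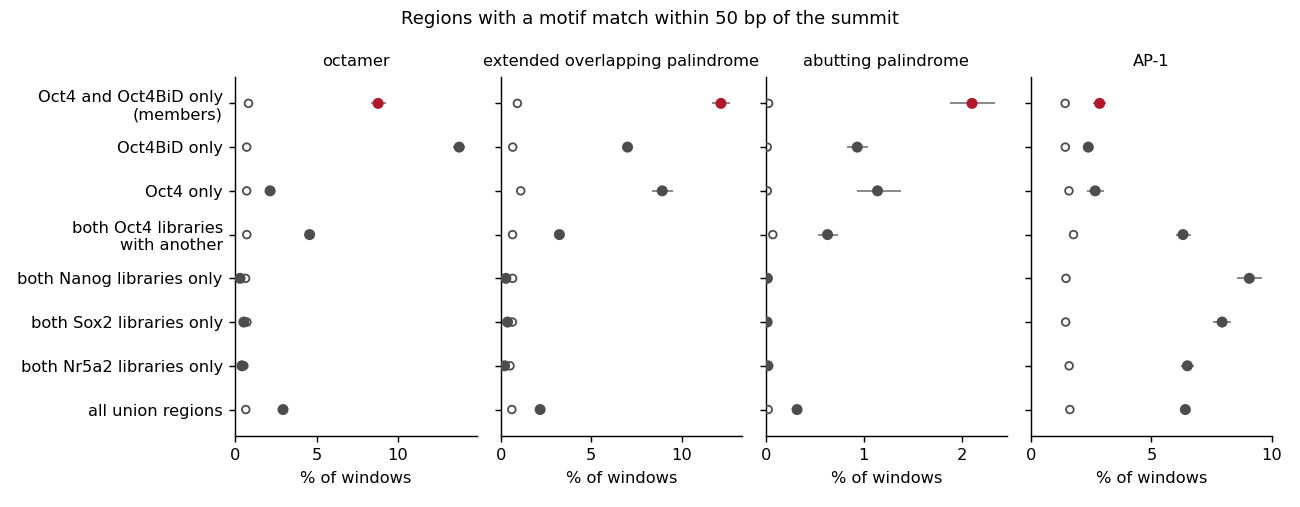
Share of windows within 50 bp of the summit that hold a match (filled points, with exact 95% intervals) and mean share in 2 flanking windows (open points) for 8 classes of region and 4 elements, with members in red. Members have the highest share of both palindromes, stand below Oct4BiD-only regions for the octamer at 8.77% against 13.8%, and have an AP-1 share of 2.85% against 6.41% of all union regions.

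Members lay between the regions of one Oct4 form alone for the octamer and above both for the palindromes. The octamer share was 13.8% (13.4 to 14.1) in Oct4BiD-only regions, 8.77% in members and 2.13% (1.84 to 2.45) in native-only regions. ATGCATAT was at 6.996% (6.72 to 7.28) of Oct4BiD-only regions, 12.1% of members and 8.91% (8.33 to 9.52) of native-only regions. ATGCGCAT was at 0.932%, 2.10% and 1.14% in the same order. The share with 4 or more ATGC was 9.96% in Oct4BiD-only regions, 22.3% in members and 22.6% in native-only regions.

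The same difference ran through the members themselves. When members were split into 5 equal groups by Oct4BiD minus native score percentile, the octamer share was 3.27% (2.67 to 3.96) in the group most tilted to native Oct4, then 4.73%, 9.76% and 11.4%, and 14.7% (13.5 to 16.02) in the group most tilted to Oct4BiD. The tandem ATGCATGC went the other way, from 9.34% (8.33 to 10.4) to 4.54% (3.83 to 5.33). ATGCATAT was at 10.9% in the first group, 14.7% in the middle one and 10.6% in the last, without a steady direction. The repeat-masked share of the windows fell along with these groups, from 31.7% to 23.4%, and its part in the differences was not tested. By height, 11.3% (10.7 to 11.97) of the members higher in Oct4BiD held an octamer, against 3.92% (3.38 to 4.52) of those higher in native Oct4. Each window was centred on the summit of the higher-scoring peak, so the form that set the window could differ between these groups. Over all members the octamer share was 6.45% at native Oct4 summits and 8.97% at Oct4BiD summits. The part of the summit choice in these differences was not tested.

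**Figure D3:**
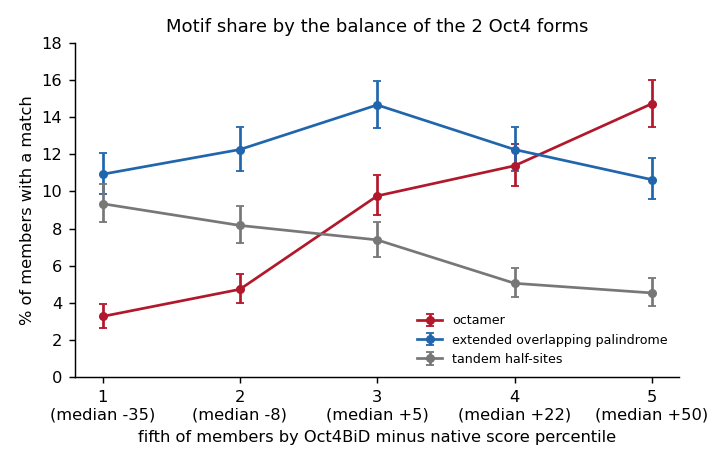
Share of members with a match within 50 bp of the summit, with exact 95% intervals, for 5 groups of 3085 members ordered by the score percentile in Oct4BiD minus that in native Oct4 (medians in brackets). The octamer goes from 3.27% to 14.7%, the tandem sites from 9.34% to 4.54%, and the extended palindrome stays between 10.6% and 14.7%.

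Strength in both lists went with smaller differences. In the group of members weakest by the lower of the percentiles the octamer was at 7.61% (6.70 to 8.61), and in the strongest it was at 11.0% (9.88 to 12.1). The mean number of ATGC was 2.21 in the weakest group and 2.61 in the strongest.

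Matches clustered about the summit, but octamers were fewer at the summit itself than beside it. The 10 bp centred on the summit held 82 octamers, or 5.32 per 1000 members, while the 10 bp centred 20 bp to the left held 208 and those centred 20 bp to the right held 211. At 300 bp on either side there were 11. In Oct4BiD-only regions the centre held 333 octamers and the same side bins 615 and 654. ATGCATAT dipped less in members, with 265 matches at the centre. Among members with an octamer within 250 bp, its median distance was 42.5 bp from the Oct4BiD summit and 59.5 bp from the native Oct4 summit.

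**Figure D4:**
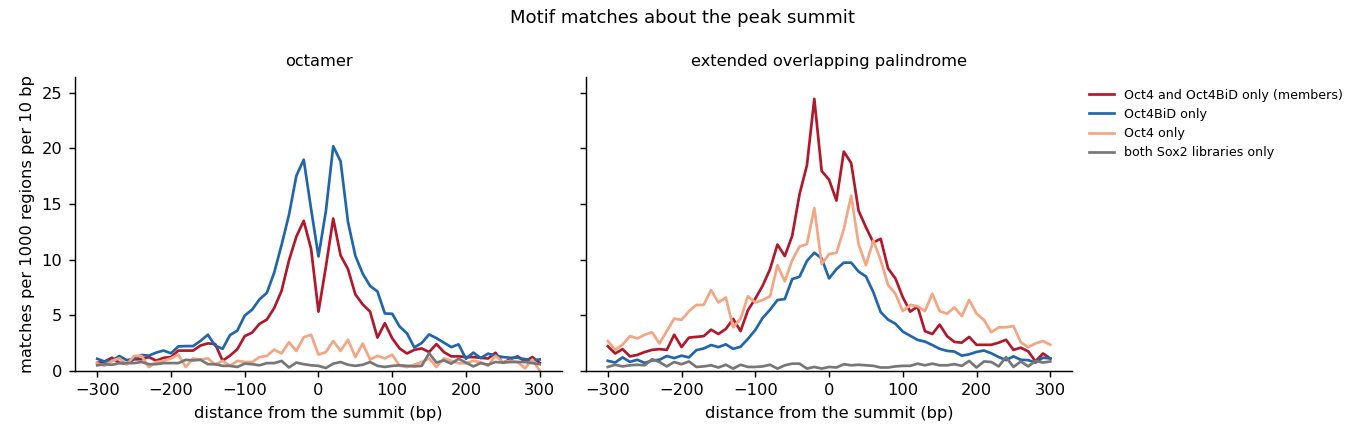
Matches per 1000 regions in steps of 10 bp from the summit for the octamer (left) and the extended palindrome (right), in members, in regions of one Oct4 form only and in regions of both Sox2 libraries only. Members rise from under 1 octamer at 300 bp to over 13 at 20 bp on either side and fall to 5.32 at the summit, and the Sox2 line stays flat.

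Much of the palindrome signal lay in repeats. Bases that the reference marks as repeats made up 27.4% of member windows and 26.02% of their flanks, while every comparison class but native-only regions fell below its flanks, and all union regions stood at 16.9% against 25.2%. Repeats held 20.4% of the octamer matches in members and 16.9% of the ATGCGCAT matches, but 62.6% of the ATGCATAT matches and 56.3% of the ATGCAT matches. In the 5766 members without a repeat-masked base in the window, the octamer was at 10.01% (9.24 to 10.8) and ATGCATAT at 6.12% (5.52 to 6.77), so their order was the reverse of that over all members. ATGCGCAT stayed at 2.06%, and 14.2% (13.3 to 15.1) held 4 or more ATGC against 2.78% of all union regions treated the same way. The authors discarded reads with low mapping quality, so repeats with near-identical copies are less likely to give a peak.

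Pairs of ATGC sites showed a preference for even spacing that went with repeats. Over both orders and strands, a pair with an even gap of 2 to 12 bp was at 22.9% of members (22.2 to 23.6) and one with an odd gap of 1 to 11 bp at 11.3% (10.8 to 11.8). In members without a repeat-masked base the shares were 14.98% (14.1 to 15.9) and 12.97% (12.1 to 13.9), and their ratios to flanks were 4.76 and 4.99. An abutting inverted pair and an inverted pair with a gap of 1 bp were at 324 and 45 members.

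Members had a low content of G and C, 39.0% at the summit against 41.9% in the flanks, whereas all union regions had 44.4% at the summit. Oct4BiD-only regions had 39.1% at the summit, both Sox2 only 40.3% and native-only 41.3%. The other classes ranged from 43.9% in both Nanog only to 49.7% in both Nr5a2 only. Of the members, 50.3% held a CG within the window, against 55.7% of all union regions, 49.5% of Oct4BiD-only and 50.1% of native-only regions.

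Most members lay away from promoters. Their summits fell within 2 kb of any annotated start of transcription in 9.57% (9.11 to 10.04), against 14.7% of all union regions and 34.0% where both Oct4 libraries met another factor. Other classes were near members, at 8.48% of native-only, 8.51% of both Sox2 only, 10.3% of both Nanog only and 11.1% of Oct4BiD-only regions. Regions of both Nr5a2 libraries only were at 15.1%. Introns held 46.9% of members, intergenic sequence 41.4% and exons 2.18%, close to the 43.1%, 39.3% and 2.93% of all union regions. The median distance to the nearest start site was 16303 bp over all annotated transcripts and 37760 bp for protein-coding genes, and 30.1% of members were more than 100 kb from a protein-coding start site. Over all union regions the values were 12788 bp, 27411 bp and 25.1%. For comparison the median over all transcripts was 15322 bp for regions of both Nanog libraries only, 18776 bp for both Sox2 libraries only and 10889 bp for both Nr5a2 libraries only. The octamer share was 8.33% (6.97 to 9.86) of promoter members and 9.18% (8.48 to 9.92) of intergenic ones, so its intervals overlapped between locations.

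**Figure D5:**
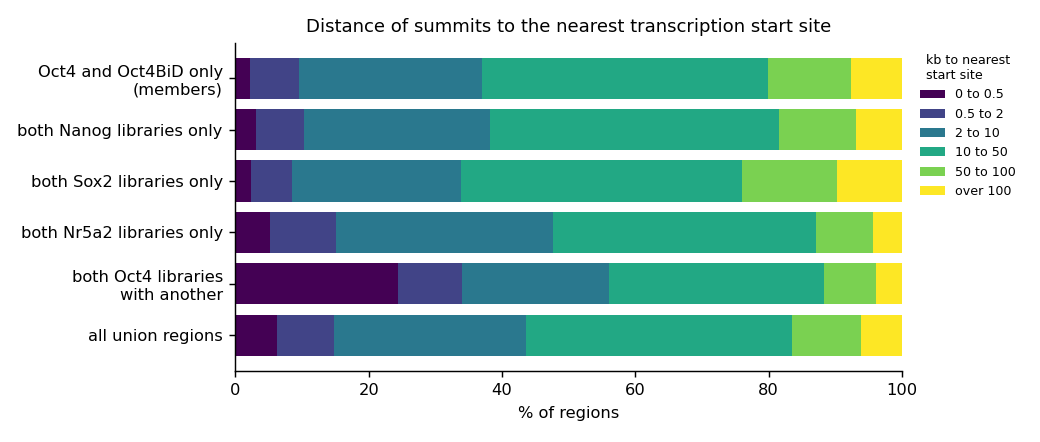
Share of regions by distance in kb from the summit to the nearest transcription start site, for members and 5 other classes. Members have 2.15% of summits within 0.5 kb and 42.9% between 10 and 50 kb, while all union regions have 6.18% and 39.8%.

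Members were spread over the genome. On the autosomes they made up between 4.55% of union regions on chromosome 7 and 5.70% on chromosome 3, and 4.09% on chromosome X. The median distance from one member to the next nearest was 44700 bp, and 12.7% had another within 10 kb.

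The other members of the top 15 were near genes of varied function. All 15 stood at or above the 99.6 percentile of both lists. The highest score in native Oct4, 1093, belonged to an intergenic member 13.5 kb from Scarb2, a lysosomal membrane protein gene, with 62 tags in native Oct4 and 71 tags in Oct4BiD. A member in an intron of Ror1, a receptor for Wnt5a, had 71 and 82 tags in that order. One 16.1 kb from Emc2, a subunit of the endoplasmic reticulum membrane complex, had 59 and 71 tags, and one 101.03 kb from Pdha2, a testis pyruvate dehydrogenase subunit gene, had 48 and 73 tags. Members near Lrrn1, a neuronal leucine-rich repeat gene, Bglap, which encodes osteocalcin, and Mrpl46, a mitochondrial ribosome subunit gene, had 82, 75 and 75 tags in native Oct4 and 87, 88 and 78 tags in Oct4BiD. The members near Setbp1 and Lrrc66 had 69 and 51 tags in native Oct4 and 70 and 65 tags in Oct4BiD. The member in an intron of Lgi2 was the only one of the 15 without an ATGC in its window, and with 88 tags in native Oct4 against 73 tags in Oct4BiD it was, with that near Ndst3, one of the 2 that were not higher in Oct4BiD.

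Within 100 kb of a start site, 14332 of 21938 protein-coding genes had at least 1 member, or 65.3%. The median gene had 1, and this share is the background for the lists below. The genes with the most members were long. Thsd7b, a thrombospondin repeat gene of 946 kb, had 16 members of 70 union regions, and Celf2, a splicing regulator gene, had 15 of 155. Tnik, a kinase gene, had 15 of 93. Mast4, a kinase gene, had 14 of 157, and Pde4d, which encodes a cAMP phosphodiesterase, had 13 of 287. Ptprm, a receptor phosphatase gene, had 13 of 130 and Syne1, which encodes a nuclear envelope protein, 13 of 114. Bank1, a B cell scaffold gene, Enox1 and Pcdh15, a protocadherin gene, had 12 each. Start sites spread over long genes give more room for regions, and members were between 4.53% of the union regions at Pde4d and 22.9% at Thsd7b.

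Around genes of the pluripotency network the share of members was close to that of the series. Of 28 such genes, 19 (67.9%) had a member within 100 kb, and 32 of the 750 union regions there were members, 4.27% (2.94 to 5.97) against 5.03% overall. Klf2, Klf4, Nr5a2, Otx2, Prdm14, Sall1, Sox2 and Tbx3 were among those with none. The locus shared by Nanog, Dppa3 and Gdf3 had 5 members. The strongest by score in both lists, chr6:122676004-122677045, had 33 tags in native Oct4 and 30 tags in Oct4BiD. It lay 31.1 kb from the nearest Nanog start site. None of these 5 held an octamer or ATGCAT. Foxd3 had 3 members, and the one at chr4:99641518-99642492, 14.3 kb from its start site, had 16 tags in native Oct4 and 44 tags in Oct4BiD. Klf5 had 3 as well, of which chr14:99317633-99318458 held ATGCAT and was the higher in native Oct4, with 38 tags against 14 tags. Both members near Esrrb, an orphan nuclear receptor of pluripotent cells, held ATGCAT and 4 ATGC, with 12 and 18 tags in native Oct4 and 18 and 16 tags in Oct4BiD. The 1 octamer among these 32 members was in the region 78.6 kb from Fgf4, with 20 tags in native Oct4 and 36 tags in Oct4BiD.

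Neither Oct4 library had a peak over Pou5f1 itself. The member nearest to that gene was 36.8 kb away at chr17:35544655-35546470, with 27 tags in native Oct4, 22 tags in Oct4BiD and no ATGC in its window.

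Of 15 POU genes, 10 had a member. Pou3f1, a neural and epiblast POU gene, had 6 of 29 union regions, and they spanned 12 to 49 tags in Oct4BiD. Pou2f1, which encodes the broadly expressed Oct1, had 4 members, of which 2 lay within 1 kb of an annotated start site. The member at chr1:165934481-165935718, 0.158 kb from a start site, had 14 tags in native Oct4 and 37 tags in Oct4BiD with 4 ATGC, and that at chr1:165913829-165914534 held an octamer with 13 tags in native Oct4 and 17 tags in Oct4BiD. Over the POU list members were 24 of 436 union regions, 5.50% (3.56 to 8.08).

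Of 19 SOX genes, 13 had a member, and members were 29 of 672 union regions (4.32%, 2.91 to 6.14). Sox5 had 6. A member 57.8 kb from Sox9, a regulator of cartilage and neural crest, held an octamer and had 33 tags in native Oct4 and 83 tags in Oct4BiD. Sox17 had 2 members of only 8 union regions, and one of them held ATGCAT and 7 ATGC.

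Of 20 fibroblast genes, 18 had a member, and members were 46 of 895 union regions (5.14%, 3.79 to 6.80). Dab2, an endocytic adaptor gene, and Runx2, a bone and mesenchyme regulator, had 7 each. At Runx2 all 7 lay in introns of annotated genes, and Oct4BiD ranged from 15 to 54 tags and native Oct4 from 11 to 28. All 3 members near Snai2, a mesenchymal transcription factor gene, held an octamer. Octamers were at 10 of the 46 members by fibroblast genes, 21.7% (10.9 to 36.4), beside 8.77% of all members. They were at 1 of the 32 by pluripotency genes, 3.13% (0.0791 to 16.2), and at 4 of the 18 by neural transcription factor genes, 22.2% (6.41 to 47.6). The intervals of these lists overlap one another. The fibroblast interval lies above the share of all members, while the pluripotency and neural intervals include it. The fibroblast value rests on 46 members, and the difference was not tested.

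Of 20 neural transcription factor genes, 12 had a member, and members were 18 of 451 union regions (3.99%, 2.38 to 6.23). Lhx2, a LIM homeobox gene of forebrain, had 3, the strongest by score in both lists with 74 tags in native Oct4 and 72 tags in Oct4BiD. Of 10 trophoblast and endoderm genes, 9 had a member, 15 of 308 union regions (4.87%, 2.75 to 7.91). All 15 neuronal adhesion and guidance genes had one, 59 of 1046 union regions (5.64%, 4.32 to 7.22), with 7 each at Lrrc4c and Slit2. Of 14 BAF subunit genes, 10 had a member, and these were 16 of 581 union regions, 2.75% (1.58 to 4.43), the lowest share of the 8 lists and below 5.03%. Arid1b had 5 of the 16.

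Promoter classes known for an octamer were looked at by the same distance of 2 kb. No member was among the 16 union regions near a start site of the 19 H2B histone genes, where 13 regions had both Oct4 libraries and another factor. Near small nuclear RNA genes 31 of 678 union regions were members, of which 3 held an octamer, and near immunoglobulin V genes 1 of 22, with an octamer. Native Oct4 peaks alone were at 7 of the 22 immunoglobulin V regions, 6 of them with an octamer. Of all 45186 union regions within 2 kb of a start site, 1476 were members. Another 8215 had both Oct4 libraries with another factor, and 760 had native Oct4 alone. The H2B and immunoglobulin V classes hold few regions, and no difference between classes was tested.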

How the data were processed

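Peak lists of 8 CUT&Tag libraries were used, 1 per group, grouped by title. The methods name Trim Galore 0.6.4 for trimming, Bowtie2 2.4.5 for alignment (build mm10), SAMtools 1.16.1 for filtering and MACS 1.4.2 for peaks. No control library is named, and sources differ on whether replicates were pooled. The deposited score is 10 times the negative log10 of the caller's p-value; the deposited summit signal is the authors' height in tags. Neither is scaled to depth. Read totals in the study's reporting summary were cited for the order of the 2 Oct4 libraries and were not used to rescale any value.

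Peaks were merged at 1 bp. Motif matches were read from GRCm38 and genes from GENCODE M21, with Python 3.11.15, NumPy 2.4.6, pandas 2.3.3, SciPy 1.17.1 and matplotlib 3.10.9. The counting steps were tested on simulated data. Named genes are those nearest the 15 highest-ranked members, the 10 with the most members, and fixed lists. Members and lists were chosen with earlier results of these data known. Alternatives changed the merge gap, score minimum, libraries, window, promoter distance and gene distance.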

Additional observations from a re-analysis of the deposited data

How the results depend on the processing

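Of 39 alternatives, 17 stayed within 1.5 times a count or within the interval of a share or median, and 22 did not. Members numbered 7556 with Oct4 scores of at least 100 and 5669 when each list was limited to its 20000 best peaks. The octamer share was 4.40% within 25 bp, 12.8% within 100 bp, 6.45% at native Oct4 summits, 9.62% with scores of at least 100, 11.8% with the 20000 best peaks and 52.1% with 1 mismatch allowed. The share with 1 mismatch has no flank or union share beside it, so how much of it is background is not known. Its ratio to flanks was 8.10 within 100 bp, 8.06 at native summits, 13.9 with the 20000 best peaks and 12.5 with flanks at 1000 bp. Without repeat-masked bases, a setting chosen after seeing the data, the octamer was at 10.01% and ATGCATAT at 6.12%. The promoter share was 2.15% at 500 bp, 4.55% at 1 kb and 5.67% for protein-coding genes. Oct4BiD was higher in 70.7% by score and 58.4% by percentile. The summit distance was 37 bp with scores of at least 100, the distance to protein-coding start sites 37760 bp, and 4481 genes had a member in the gene or 5 kb upstream. No paired analysis was possible because each group is 1 library and the labels give no replicate numbers. The cause of these shifts was not tested beyond what each setting changes by construction.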

Other observations

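A word of 16 bases, AATGTGTACATATGCA, was the most widely shared among members outside of simple repeats. It lay within 150 bp of the summit in 83 members (0.538%), against 330 of 306426 union regions with sequence (0.108%). All 83 had it in repeat-masked sequence, and they lay on 19 chromosomes. The placed chromosomes hold 1487 copies. The word was in 0.673% of Oct4BiD-only regions, a larger share than in members, 0.0893% of native-only regions and 0.058% of regions of both Oct4 libraries with another factor, and in none of the regions of both Nanog, both Sox2 or both Nr5a2 libraries only. In the 83 members the median height was 14 tags in native Oct4 and 27 tags in Oct4BiD, and 53 of them were intergenic. The word ends in TATGCA and holds no octamer. It was found by its number in the members, so its count there is a description.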
